A study of Mus musculus with 11 samples.

Results

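Hox genes encode homeodomain transcription factors and lie in 4 clusters in mammals, Hoxa, Hoxb, Hoxc and Hoxd, where genes with the same position number are paralogues. In the mouse embryo, genes with low numbers act towards the head and genes with high numbers towards the tail and the limb tips. In adult skin, fibroblasts keep a Hox pattern that follows the body site they came from, and Hoxc13 is known for its place in the growing hair, where it is needed for hair keratin expression. The members described here were all genes whose single annotated symbol is Hoxa, Hoxb, Hoxc or Hoxd followed by a number, which gave 38 of 20352 measured genes, 10 each in clusters Hoxa and Hoxb and 9 each in Hoxc and Hoxd. In the mouse annotation (GRCm38) the clusters lie on chromosomes 6, 11, 15 and 2 in that order.

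The samples were 5 keratoacanthomas, squamous tumours of keratinocytes, and 6 normal skins, each on its own array. All tumours came from mice that carried both the K14-Cre and the Zmiz1 transgene. Of the normal skins, numbers 1 and 2 came from such double transgenic mice, 3 and 4 from carriers of K14-Cre alone, and 5 and 6 from carriers of the Zmiz1 transgene alone. K14-Cre is expressed from the promoter of keratin 14, a keratin of basal keratinocytes, and Zmiz1 is a transcriptional co-regulator of the PIAS-like family. Age, strain and the body site of each piece were not given in the sources used here, nor was it stated that each piece is from a different animal. The p-values therefore measure the spread between these arrays, which may be technical.

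Array values were on a log2 scale, and a gene's level was the median over its probesets, of which Hox genes had 2 to 8 each and 147 in all. The 25th percentile of all probesets lay between 4.88 and 4.95 on the arrays. A probeset is called dim here when its mean over the arrays lies under the 25th percentile of probeset means. A gene is called dim when its mean lies under the 25th percentile of gene means (5.19). How precisely a difference could be measured depended on there being 5 and 6 arrays. Zmiz1 itself was at 8.15 ± 0.11 in keratoacanthoma (SD, n = 5) and 7.50 ± 0.30 in normal skin (n = 6), a log2 difference of 0.65 (SE 0.14, limma adjusted p = 0.0045). Keratinocyte markers averaged 10.04 to 10.10 in the tumours and 9.31 to 9.84 in normal skin, and of 16 genes 6 were called higher and 3 lower. Krt14 was higher in the tumours by 1.19 (limma adjusted p = 8.8e-05), while Dsg1a (-0.79, 0.0031) and Krt15 (-0.54, 0.028) were lower. Hair shaft genes stood apart on 3 arrays, with averages of 8.22 in keratoacanthoma 4, 9.03 in normal skin 1 and 8.77 in normal skin 3, against 6.19 to 6.41 in the other tumours and 5.86 to 5.93 in the other normal skins.

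Promoter windows of 300 bases, 250 before and 50 after the start site, could be matched for 22 of the 38 genes (24 windows, since Hoxa10 and Hoxd11 have 2 each), 8 of which are among the genes that fell in the comparison below. Shown are the windows (RefSeq, GRCm38.p6) of Hoxa5, which fell most, of Hoxd8, of Hoxd10 in the same cluster, which did not pass the test, and of Hoxb1. They lie at chr6:52204538-52204837 on the minus strand for Hoxa5, and on the plus strand at chr2:74704365-74704664 for Hoxd8, chr2:74691641-74691940 for Hoxd10 and chr11:96365508-96365807 for Hoxb1. Capitals mark CCAAT boxes and matches to TGATNNAT, a composite site for a Hox protein and its partner PBX, on either strand.
Hoxa5: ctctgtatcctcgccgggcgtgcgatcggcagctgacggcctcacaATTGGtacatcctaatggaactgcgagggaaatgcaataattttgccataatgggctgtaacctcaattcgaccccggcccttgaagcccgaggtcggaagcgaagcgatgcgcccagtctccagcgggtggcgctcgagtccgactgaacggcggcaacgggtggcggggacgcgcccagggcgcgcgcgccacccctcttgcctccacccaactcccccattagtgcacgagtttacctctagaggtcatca
Hoxd8: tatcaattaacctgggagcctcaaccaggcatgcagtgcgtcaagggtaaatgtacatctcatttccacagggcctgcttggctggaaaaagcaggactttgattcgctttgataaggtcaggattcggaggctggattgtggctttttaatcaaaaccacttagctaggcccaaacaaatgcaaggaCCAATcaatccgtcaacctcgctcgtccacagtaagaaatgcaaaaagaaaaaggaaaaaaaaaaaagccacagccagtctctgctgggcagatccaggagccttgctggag
Hoxd10: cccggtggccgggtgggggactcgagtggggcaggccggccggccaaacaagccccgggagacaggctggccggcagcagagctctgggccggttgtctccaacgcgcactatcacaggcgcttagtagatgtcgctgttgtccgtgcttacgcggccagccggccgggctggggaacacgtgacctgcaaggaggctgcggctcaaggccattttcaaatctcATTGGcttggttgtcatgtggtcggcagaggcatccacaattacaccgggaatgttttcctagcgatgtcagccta
Hoxb1: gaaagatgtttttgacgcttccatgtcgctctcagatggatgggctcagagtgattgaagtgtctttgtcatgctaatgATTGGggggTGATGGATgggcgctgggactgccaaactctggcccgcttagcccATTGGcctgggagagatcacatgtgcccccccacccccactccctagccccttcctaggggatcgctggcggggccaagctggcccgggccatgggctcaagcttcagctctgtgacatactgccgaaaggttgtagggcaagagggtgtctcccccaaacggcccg
Hoxa5, Hoxd8 and Hoxd10 each held 1 CCAAT match, and Hoxb1 held 2. Of these 4 windows, the one of Hoxb1, a gene known in mouse embryos to maintain its own expression through HOX-PBX sites, held the TGATNNAT match. TGATNNAT occurred in 4 of 24 Hox windows (Hoxa2, Hoxb1, Hoxb8 and Hoxd11) and in 8.85% of 32851 mouse promoter windows. CCAAT occurred in 15 of the 24 Hox windows and in 37.4% of all windows, with 5 of 8 among genes that fell and 10 of 16 among the others. Also searched were TGACAG, a MEIS site (2 of 24 Hox windows and 19.2% of all), TATAAA (4 of 24 and 13.6%) and GGGCGG (10 of 24 and 35.7%), each on both strands. The Hox windows had a median of 14.5 CpG dinucleotides, against 7 in all windows. Hoxa5 had 29, Hoxd8 had 6, Hoxd10 had 22 and Hoxb1 had 10. These matches describe the letters of the windows and were not tested against the expression values.

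The comparison of keratoacanthoma with normal skin showed a fall of Hox genes with middle position numbers in all 4 clusters, and of those with low numbers in the Hoxb cluster. The measured genes with low numbers in Hoxa and Hoxd were dim, as defined above. Of the 38 genes, 17 (44.7%) were lower in the tumours and 0 higher (limma with adjustment over all 20352 genes, adjusted p below 0.05; at an unadjusted p below 0.05, 21 were lower and 0 higher). Over all genes, 10.8% were called lower and 14.5% higher. The median log2 difference of the 38 genes was -0.40, against -0.04 for all genes, and 30 of the 38 lay below 0. In 11 of the 38 genes every tumour lay below every normal skin and in 0 every tumour lay above, where 6.31% of all genes separated with every tumour below and 9.66% with every tumour above. In whole tissue, fewer cells of a type cannot be told apart from less RNA per cell. With only the 2 normal skins of double transgenic mice as reference, which leaves 7 arrays, the count of lower Hox genes was 9. Calls over all genes, in either direction, were then 3186, against 5159 with all normal skins.

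**Figure D1:**
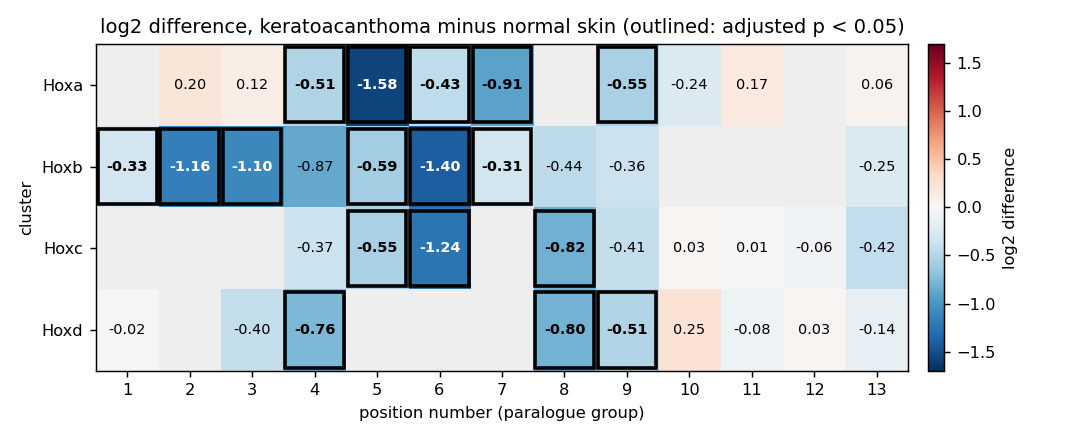
Log2 difference between keratoacanthoma and normal skin for each Hox gene, with the 4 clusters in rows and the position number in columns; grey cells hold no measured gene and outlined cells passed the test. The 17 outlined genes lie at positions 1 to 9, and the values at positions 10 to 13 run from -0.42 to 0.25.

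Markers of other cell types were also compared between tumours and normal skin. Of 16 fibroblast genes, 5 were lower in the tumours and 1 higher (median -0.36), and the list averaged 7.35 to 8.10 in keratoacanthoma and 8.15 to 8.63 in normal skin, without overlap. The collagen-binding proteoglycans Dcn (-1.87, limma adjusted p = 0.0021) and Lum (-1.32, 0.0059), Dpt (-2.02, 0.0030) and Cd34 (-1.31, 2.3e-04) fell, Crabp1 was higher by 0.90 (0.045), and Pdgfra, Twist2 and Thy1, named after their values were seen, differed by 0.00, 0.00 and -0.03 (0.99, 0.99 and 0.90). All 20 skeletal muscle genes were lower (median -4.33), with averages of 5.50 to 6.87 in the tumours and 9.78 to 11.17 in normal skin. Fat cell genes were lower in 7 of 10 (5.98 to 6.96 in the tumours and 7.50 to 8.60 in normal skin), and Schwann cell genes in 5 of 8 with 1 higher (6.00 to 6.06 in the tumours and 6.21 to 6.78 in normal skin). Smooth muscle and pericyte genes were lower in 5 of 12 (6.50 to 6.79 in the tumours and 7.06 to 7.43 in normal skin), with a median of -0.20. Des (-3.15, limma adjusted p = 2.6e-05) and Synpo2 (-2.08, 2.6e-05) fell most. Acta2, Rgs5 and Notch3, named after their values were seen, differed by 0.26, 0.31 and -0.10 (0.39, 0.23 and 0.49). Endothelial genes were higher in 2 and lower in 2 of 12, and their averages overlapped (6.04 to 6.38 in the tumours and 6.04 to 6.33 in normal skin). Leukocyte genes were higher in 3 and lower in 3 of 15 (6.37 to 6.96 in the tumours and 6.13 to 6.64 in normal skin). The part of these cell types in the fall of the Hox genes was not tested. For the fibroblast, muscle, fat, Schwann and pericyte lists the groups did not overlap, so that list and tumour cannot be told apart on these arrays.

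By position number, the genes that fell lay between 1 and 9. Of the 19 genes at positions 4 to 9, 14 were lower, all 19 differences were below 0 and the median was -0.55. Of the 7 genes at positions 1 to 3, 3 were lower, and these were the Hoxb members. These 3 Hoxb genes stood at or above the 25th percentile of gene means (5.19). The 2 of Hoxa (4.37 and 4.62) and the 2 of Hoxd (4.60 and 4.84) stood below it. Without dim probesets Hoxa3 and Hoxd3 were called lower as well. Of the 12 genes at positions 10 to 13, 0 passed the limma test, also 0 at an unadjusted p below 0.05, and the median was -0.02. These position ranges were drawn after the values were seen and the difference between them was not tested. In the high range 7 genes stood at or above the 25th percentile of gene means (5.19), namely Hoxa10, Hoxa13, Hoxb13, Hoxc13, Hoxd10, Hoxd11 and Hoxd13, and the remaining 5 below it; at positions 4 to 9, 16 of 19 stood at or above it. Without dim probesets Hoxa11, at position 11, was called lower (-0.39, adjusted p = 0.036, against 0.17 with all probesets). Against double transgenic normal skin alone, leaving out dim probesets called both Hoxa11 and Hoxb13 lower.

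**Figure D2:**
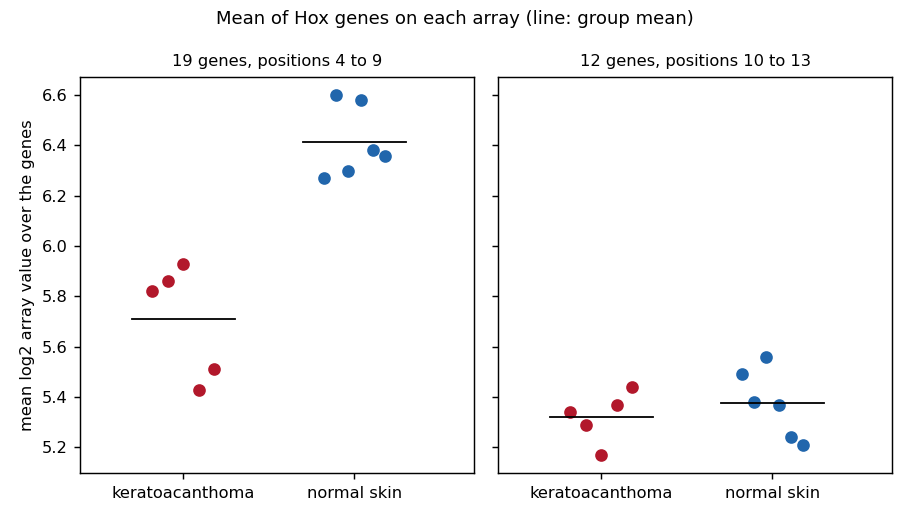
Mean log2 array value over the 19 Hox genes at positions 4 to 9 (left) and the 12 at positions 10 to 13 (right), one point per array, with a line at each group's mean. On the left the 5 tumours lie at 5.43 to 5.93 and the 6 normal skins at 6.27 to 6.60; on the right the tumours at 5.17 to 5.44 and the normal skins at 5.21 to 5.56 overlap.

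In the Hoxa cluster all 5 genes from Hoxa4 to Hoxa9 fell. Hoxa5, which in the mouse is needed for lung development and for the skeleton at the base of the neck, had the largest fall of the 38 genes. Its values were 6.25, 6.32, 5.65, 4.88 and 4.96 in keratoacanthomas 1 to 5, against a lowest, median and highest of 6.82, 7.22 and 7.61 in normal skin. The groups did not overlap, and keratoacanthomas 4 and 5 were the lowest. The difference was -1.58 (SE 0.26, limma adjusted p = 7.6e-04), or 3-fold lower. Its 5 probesets did not move together: 3 fell, by 3.97, 2.90 and 2.02, while the other two differed by 0.09 and 0.18. The probeset with the fall of 3.97 stood at 1.94, 2.25, 2.74 and 2.82 in 4 tumours but at 5.74 in keratoacanthoma 2, against 6.43 to 7.61 in normal skin.

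Hoxa4, a gene of neck patterning in the embryo, had 6.57, 6.46, 6.57, 6.48 and 6.46 in keratoacanthomas 1 to 5, against 6.81, 7.05 and 7.16 (lowest, median and highest) in normal skin. The groups did not overlap, and the tumours varied little (difference -0.51, SE 0.09, limma adjusted p = 0.0015). Hoxa6, which patterns the trunk, had 6.39, 6.57, 6.43, 5.97 and 6.26 in the tumours, against 6.61, 6.76 and 6.84 in normal skin, again without overlap (-0.43, SE 0.11, adjusted p = 0.012). Hoxa7, also a trunk gene, had 5.58, 6.54, 5.89, 5.45 and 5.21 in the tumours, against 5.94, 6.73 and 7.13 in normal skin, where keratoacanthoma 2 lay within the normal range (-0.91, SE 0.26, adjusted p = 0.022). Hoxa9, known for its part in blood stem cells and leukaemia, had 4.58, 5.41, 4.96, 4.59 and 4.80 in the tumours, against 5.01, 5.49 and 5.68 in normal skin, and keratoacanthoma 2 lay within the normal range (-0.55, SE 0.17, adjusted p = 0.027). Its 6 probesets were all lower on average, and 0 passed the limma test across probesets (2 at an unadjusted p below 0.05). The one with the largest fall (2.66) stood at 11.18 in keratoacanthoma 2, at 4.51 to 8.12 in the other tumours and at 9.0 to 10.56 in normal skin. Hoxa9 and Hoxa7 were the 2 calls of the cluster that single arrays decided. Hoxa7 was not called without keratoacanthoma 4 (adjusted p = 0.052) or 5 (0.062). Hoxa9 was not called without keratoacanthoma 1, 4 or 5 (0.068, 0.067 and 0.061) or normal skin 2, 3 or 4 (0.050, 0.052 and 0.058), without the 3 arrays high in hair shaft genes (0.15), or without dim probesets (0.49).

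At the ends of the Hoxa cluster no gene passed. Hoxa2 and Hoxa3, genes of the hindbrain and the pharyngeal arches, differed by 0.20 (95% interval -0.53 to 0.93) and 0.12 (-0.29 to 0.53), both with group means below 4.88. Hoxa3 turned to -0.69 and was called (adjusted p = 0.023) when dim probesets were left out, which keeps 1 of its 3 probesets. Hoxa10, Hoxa11 and Hoxa13, which pattern the limb and the reproductive tract, differed by -0.24 (-0.71 to 0.23), 0.17 (-0.20 to 0.54) and 0.06 (-0.14 to 0.27). Hoxa10 stood at 6.29 in keratoacanthoma 2, above the 5.55 to 5.88 of normal skin, and at 4.88, 4.95, 5.21 and 5.73 in the other tumours, so that its tumours lay on both sides of normal skin.

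**Figure D3:**
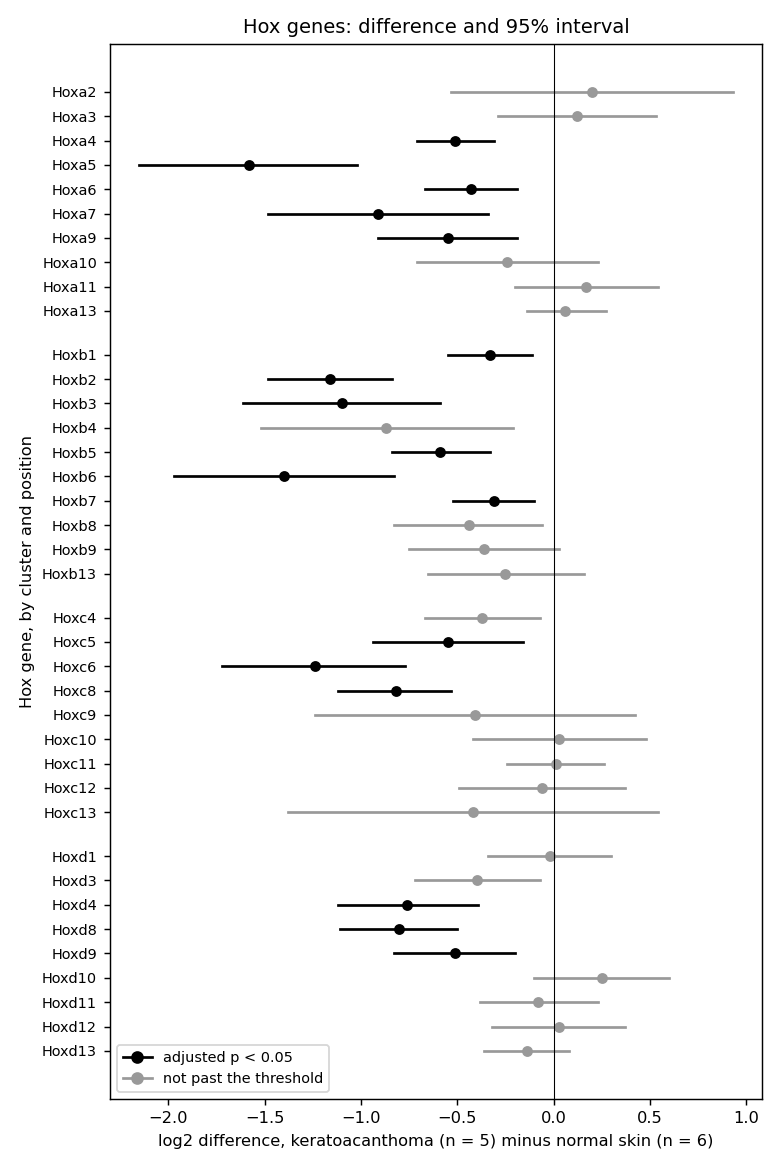
Log2 difference between keratoacanthoma (n = 5) and normal skin (n = 6) with its 95% interval from limma for each of the 38 Hox genes, by cluster and position. The 17 genes past the threshold, in black, lie between -0.31 and -1.58, and the intervals of Hoxa2, Hoxc9 and Hoxc13 are the widest among those in grey.

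In the Hoxb cluster 6 of 10 genes fell and all 10 differences were below 0. Hoxb2, which acts in the hindbrain of the embryo, had 5.14, 5.24, 5.50, 5.37 and 5.24 in keratoacanthomas 1 to 5, against 5.94, 6.57 and 6.76 in normal skin. All tumours lay below all normal skins, and the difference of -1.16 (SE 0.15, limma adjusted p = 1.1e-04), or 2.23-fold lower, had the smallest p of the 38 genes. Of its 4 probesets, 1 passed on its own (-2.94, adjusted p = 8.7e-05). Hoxb3, its neighbour and also a hindbrain and pharyngeal arch gene, had 6.25, 5.92, 6.43, 6.03 and 5.27 in the tumours, against 6.32, 7.22 and 7.51 in normal skin. The groups met at keratoacanthoma 3, which lay above the lowest normal skin (-1.10, SE 0.24, adjusted p = 0.0041). Hoxb1, which sets the identity of a hindbrain segment, had 5.92, 5.94, 6.00, 5.93 and 5.84 in the tumours, against 6.11, 6.18 and 6.48 in normal skin. Its groups did not overlap, but the difference was small (-0.33, SE 0.10, adjusted p = 0.028). Hoxb1 had 4 probesets, of which 0 passed the limma test across probesets. It was not called without keratoacanthoma 1, 2, 4 or 5 (0.054, 0.056, 0.051 and 0.072), normal skin 3 or 4 (0.054 and 0.059) or the 3 arrays high in hair shaft genes (0.10).

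Among the middle Hoxb genes, Hoxb6, a gene of trunk and limb mesoderm, fell most. It had 5.56, 5.80, 6.73, 5.13 and 5.09 in keratoacanthomas 1 to 5, against 6.67, 7.03 and 7.57 in normal skin, a difference of -1.40 (SE 0.26, limma adjusted p = 0.0017). Keratoacanthoma 3 lay within the normal range and keratoacanthomas 4 and 5 were lowest. Hoxb5, which acts at the level of the shoulder, had 4.92, 4.86, 4.85, 4.82 and 4.73 in the tumours, against 5.18, 5.38 and 5.84 in normal skin, without overlap (-0.59, SE 0.12, adjusted p = 0.0029). The tumour values lay near the 25th percentile of the arrays, while the Hoxb5 probeset with the largest change fell by 2.59, with 5.30 to 7.49 in the tumours and 8.60 to 9.10 in normal skin. Hoxb7 had 6.10, 6.10, 6.10, 5.83 and 5.90 in the tumours, against 6.11, 6.35 and 6.43 in normal skin, a gap of 0.01 between the groups (-0.31, SE 0.10, adjusted p = 0.033). It had 2 probesets, of which 0 passed the limma test across probesets (adjusted p = 0.38 and 0.19). Hoxb7 was not called without keratoacanthoma 4 or 5 (0.083 and 0.085), normal skin 1, 2, 3, 4 or 6 (0.055, 0.054, 0.057, 0.051 and 0.051) or the 3 arrays high in hair shaft genes (0.19).

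Hoxb4, Hoxb8, Hoxb9 and Hoxb13 did not pass. Hoxb4, used to expand blood stem cells, had 6.17, 5.60, 6.65, 5.02 and 5.02 in the tumours, against 6.08, 6.45 and 7.25 in normal skin. Its difference of -0.87 (95% interval -1.52 to -0.21, limma adjusted p = 0.053) lay at the threshold, and it was called without keratoacanthoma 1 or 3 (0.045 and 0.013) or normal skin 6 (0.044). It was also called with the mean over probesets, without dim probesets or dim genes, with the trend and robust fit and with the replicate number blocked. Hoxb8 differed by -0.44 (-0.83 to -0.06, adjusted p = 0.089) and was called without normal skin 1 or 3 (0.026 and 0.048) or without the 3 arrays high in hair shaft genes (0.0081). It was also called without dim probesets and with the hair shaft list as a covariate. Hoxb9, and Hoxb13, a gene of the prostate and the tail, differed by -0.36 (-0.75 to 0.03) and -0.25 (-0.65 to 0.16). Keratoacanthomas 4 and 5, the lowest for Hoxb4 and Hoxb6, were also the lowest tumours in 6 and 8 of the 17 genes that fell, and keratoacanthoma 3 was the highest tumour in 7.

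**Figure D4:**
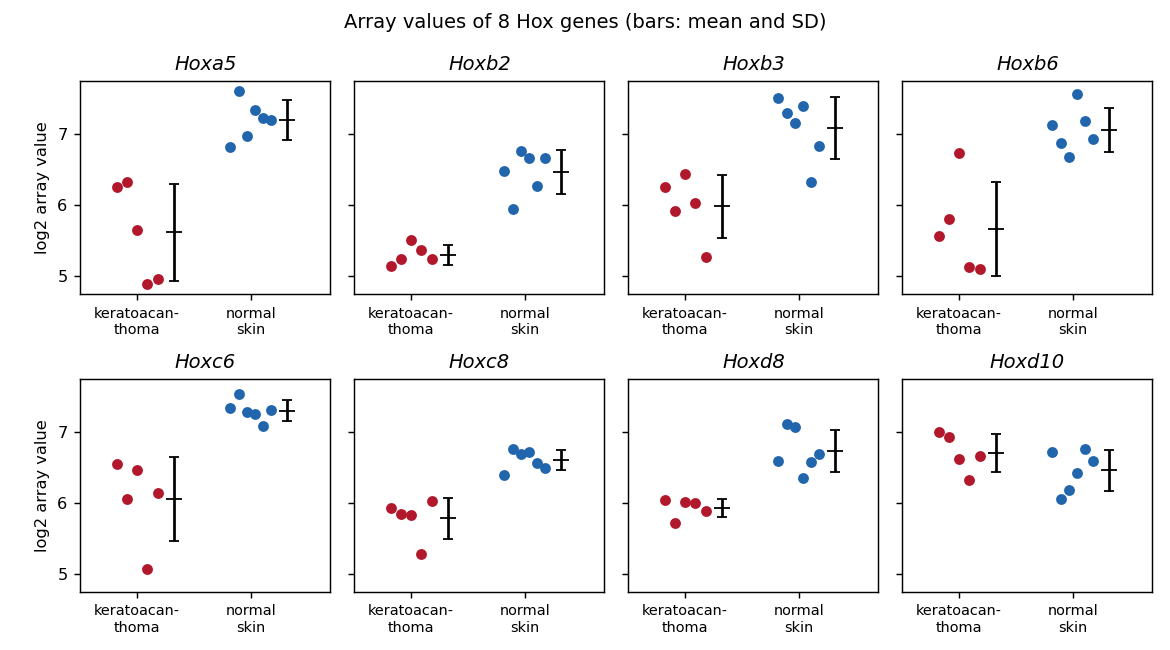
Log2 array values of 7 Hox genes that fell and of Hoxd10, which did not pass the test, with keratoacanthoma on the left and normal skin on the right of each panel; each point is an array and bars give the mean and SD. Hoxa5, Hoxb2, Hoxc6, Hoxc8 and Hoxd8 do not overlap between groups, Hoxb3 and Hoxb6 overlap through 1 tumour, and the groups of Hoxd10 overlap.

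In the Hoxc cluster Hoxc5, Hoxc6 and Hoxc8 fell. Hoxc6, a gene of the chest region of the embryo, had 6.55, 6.05, 6.46, 5.06 and 6.13 in keratoacanthomas 1 to 5, against 7.08, 7.30 and 7.53 in normal skin. The groups lay apart, and normal skin varied little (SD 0.14, n = 6) beside the tumours (SD 0.59, n = 5). The difference was -1.24 (SE 0.22, limma adjusted p = 0.0011), or 2.37-fold lower. Hoxc8, which patterns the chest and forelimb motor neurons, had 5.92, 5.84, 5.82, 5.28 and 6.02 in the tumours, against 6.39, 6.62 and 6.76 in normal skin, without overlap (-0.82, SE 0.13, adjusted p = 6.9e-04). Of its 2 probesets, 1 differed by -1.50 (limma across probesets, adjusted p = 0.0017) and the other by -0.15 (0.63). Hoxc5 had 5.86, 5.41, 5.87, 5.38 and 5.00 in the tumours, against 5.85, 5.92 and 6.60 in normal skin, and keratoacanthomas 1 and 3 lay above the lowest normal skin (-0.55, SE 0.18, adjusted p = 0.041). Hoxc5 was not called without keratoacanthoma 2, 4 or 5 (0.087, 0.083 and 0.11), normal skin 1, 2 or 4 (0.068, 0.071 and 0.055) or the 3 arrays high in hair shaft genes (0.12).

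The remaining Hoxc genes did not pass. Hoxc4 differed by -0.37 (95% interval -0.67 to -0.07, limma adjusted p = 0.069) and was called without keratoacanthoma 4 (0.043), normal skin 1 (0.030) or the 3 arrays high in hair shaft genes (0.024). It was also called with the mean over probesets and without dim probesets. Hoxc9 differed by -0.41 (-1.24 to 0.42), and its normal skins ran from 4.00 to 4.66 apart from 6.64 in normal skin 4, against 4.04 to 4.75 in the tumours. Hoxc10, Hoxc11 and Hoxc12 differed by 0.03 (-0.42 to 0.48), 0.01 (-0.24 to 0.26) and -0.06 (-0.49 to 0.37), with means below the 25th percentile of the arrays in both groups.

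Hoxc13, the regulator of hair keratins, was highest on the arrays that were high in hair shaft genes, whether tumour or normal skin. Its values were 6.39, 5.94, 6.46, 7.51 and 6.51 in keratoacanthomas 1 to 5, and 8.61, 6.32, 8.03, 6.49, 6.23 and 6.21 in normal skins 1 to 6. The 3 highest were keratoacanthoma 4 and normal skins 1 and 3, the arrays high in hair shaft genes. The difference between tumour and normal skin was -0.42 (SE 0.45, 95% interval -1.38 to 0.54, limma adjusted p = 0.53), and without those 3 arrays it was 0.01 (adjusted p = 0.97). Of its 3 probesets, 2 were high on these arrays, at 7.51 and 8.72 in keratoacanthoma 4 and at 8.03 to 9.36 in the 2 normal skins, while the third stayed between 4.94 and 5.45 on all 11 arrays. Of 29 measured hair shaft genes, 2 were called higher in the tumours and 1 lower (median -0.28). These were the desmosomal cadherin Dsc1 (1.68, adjusted p = 1.2e-04) and trichohyalin, Tchh (2.98, 0.040), which are also made outside the hair shaft, and the hair keratin Krt32 (-0.66, 0.026). Krt86, a hair cortex keratin named after its values were seen, stood at 8.90 in keratoacanthoma 4 and at 10.70 and 10.75 in normal skins 1 and 3, against 4.28 to 5.60 in the other tumours and 3.95 to 4.93 in the other normal skins.

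**Figure D5:**
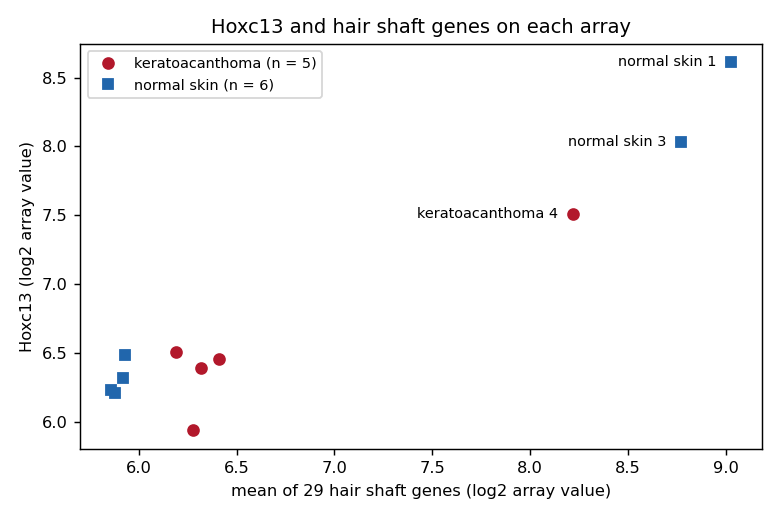
Log2 array value of Hoxc13 against the mean of 29 hair shaft genes on each array, circles for keratoacanthoma and squares for normal skin. Keratoacanthoma 4 and normal skins 1 and 3 stand apart at the upper right, with 7.51 to 8.61 for Hoxc13, and the remaining 8 arrays lie between 5.94 and 6.51.

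In the Hoxd cluster Hoxd4, Hoxd8 and Hoxd9 fell and the genes after them did not pass. Hoxd8, a trunk gene, had 6.03, 5.71, 6.01, 5.99 and 5.88 in keratoacanthomas 1 to 5, against 6.35, 6.64 and 7.11 in normal skin, without overlap (-0.80, SE 0.14, limma adjusted p = 0.0011). Of its 4 probesets, 3 fell past the threshold and the remaining one differed by 0.81 without a call. Hoxd4, which patterns the neck vertebrae, had 5.83, 6.07, 6.07, 5.82 and 5.58 in the tumours, against 6.33, 6.52 and 7.33 in normal skin, also without overlap (-0.76, SE 0.17, adjusted p = 0.0052). Hoxd9, which acts in the lower trunk and the upper limb segment, had 6.74, 6.53, 6.77, 6.32 and 6.55 in the tumours, against 6.67, 7.08 and 7.55 in normal skin. Its groups overlapped through keratoacanthomas 1 and 3 (-0.51, SE 0.15, adjusted p = 0.021), and it was not called without keratoacanthoma 4 (0.054). Of its 2 probesets, 1 differed by -0.99 (limma across probesets, adjusted p = 0.013) and the other by -0.04 (0.89).

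Hoxd10, next to Hoxd9 in the cluster and known for limb and lumbar motor neuron patterning, had 6.99, 6.93, 6.62, 6.32 and 6.66 in the tumours, against 6.05, 6.50 and 6.76 in normal skin. Its difference was 0.25 (95% interval -0.10 to 0.60, limma adjusted p = 0.29), and keratoacanthomas 1 and 2 lay above every normal skin. Hoxd11, Hoxd12 and Hoxd13, genes of the outer limb and digits, differed by -0.08 (-0.38 to 0.23), 0.03 (-0.32 to 0.37) and -0.14 (-0.36 to 0.08). Hoxd1 differed by -0.02 (-0.34 to 0.30). Hoxd3 differed by -0.40 (-0.72 to -0.07, adjusted p = 0.072) and was called without normal skin 2 (0.0068). It was also called with the mean over probesets, without dim probesets, with array weights and with single transgenic normal skin alone as reference.

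At the level of probesets, 116 of the 147 Hox probesets were lower on average in the tumours. Past the threshold in a limma fit over 211507 probesets, 29 (19.7%) were lower and 0 higher (52 and 0 at an unadjusted p below 0.05), where 6.98% of all probesets were called lower and 8.29% higher. Of the 29, 25 belonged to genes at positions 4 to 9 and 4 to positions 1 to 3. A median over probesets by its nature changes less than the most changed of them. Hoxb2 differed by -1.16 for the gene and by -2.94 for 1 probeset, with 3.17 to 5.24 in the tumours and 6.60 to 7.49 in normal skin. The most changed probesets of Hoxa5, Hoxb5 and Hoxc8 stood at -3.97, -2.59 and -1.50.

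The 2 normal skins of double transgenic mice shared the genotype of the tumours, and keratoacanthoma was also compared with these alone. In a model of 4 groups, 10 of the 38 Hox genes were lower in keratoacanthoma than in normal skin of double transgenic mice and 0 higher (limma, adjusted over all genes; 19 lower and 1 higher at an unadjusted p below 0.05), where 6.93% of all genes were called lower and 10.6% higher. The median over the 38 was -0.40, against -0.05 for all genes. The 10 were Hoxa5 (-1.60, adjusted p = 0.019), Hoxb3 (-1.42, 0.0065), Hoxc6 (-1.37, 0.016), Hoxb6 (-1.34, 0.039), Hoxd8 (-0.93, 0.011), Hoxb2 (-0.91, 0.0068), Hoxc5 (-0.88, 0.023), Hoxc8 (-0.80, 0.018), Hoxa4 (-0.47, 0.032) and Hoxb5 (-0.45, 0.043). This reference rests on normal skins 1 and 2, and without normal skin 2 the count was 2, Hoxb2 (-1.18, 0.012) and Hoxb3 (-1.53, 0.049); Hoxa5 was then at -1.21 (0.22) and Hoxc6 at -1.27 (0.14). Array weights also gave 2 calls, Hoxb2 (0.035) and Hoxd8 (0.041). In both settings the calls over all genes fell as well, with array weights to 1435 from 3575. Other single arrays decided 3 of the 10 calls. Hoxb5 was not called without any 1 of the 5 tumours (adjusted p = 0.053 to 0.086) or without normal skin 1 (0.084). Hoxa4 was not called without keratoacanthoma 2, 3, 4 or 5 (0.051 to 0.065), and Hoxb6 was not called without keratoacanthoma 1, 2, 4 or 5 (0.062 to 0.073) or normal skin 1, 5 or 6 (0.13, 0.054 and 0.054). With the mean over probesets, Hoxa4 and Hoxc6 were not called (0.05 and 0.053).

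Normal skin of double transgenic mice, set against that of single transgenic mice, gave 0 called Hox genes (limma; 1 of 38 at an unadjusted p below 0.05). That gene was Hoxa3, at -0.52 (adjusted p = 0.42). Over all genes 0.00491% were called lower and 0.00983% higher. The median over the 38 genes was 0.02. For Hoxa5 the difference was 0.03 (95% interval -0.87 to 0.92), for Hoxb3 0.48 (-0.14 to 1.10) and for Hoxb2 -0.38 (-0.78 to 0.02).

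Partners and regulators of Hox proteins were also compared, where 14.5% of all genes were called higher in the tumours and 10.8% lower. Of 8 measured TALE homeodomain cofactors, which bind DNA with Hox proteins, Meis2 and Meis1 were higher in the tumours (0.99, SE 0.22, limma adjusted p = 0.0048, and 0.51, SE 0.13, 0.011) and 0 lower (0 at an unadjusted p below 0.05; median 0.08). Meis2 averaged 6.91 in keratoacanthoma and 5.92 in normal skin. Of 11 genes of Polycomb repressive complex 2, which keeps Hox genes silent through a histone mark, 5 were higher and 1 lower (median 0.29). Jarid2 (0.93, adjusted p = 3.0e-05), Eed (0.85, 0.0017), Mtf2 (0.81, 4.1e-04) and Rbbp7 (0.79, 0.023) were the largest rises, and the catalytic subunit Ezh1 fell by 0.51 (0.018), while Ezh2 differed by 0.27 (0.39). Of 11 genes of Polycomb repressive complex 1, Cbx8 was lower (-0.49, 0.032) and 0 were higher (0 at an unadjusted p below 0.05; median 0.06). Of 10 genes of the KMT2 complexes, which keep Hox genes active, and of the demethylases of the Polycomb mark, 4 were higher and 1 lower (median 0.31). Men1 (0.51, 0.0039), Wdr5 (0.47, 0.011), Dpy30 (0.44, 0.0087) and Ash2l (0.33, 0.032) rose and the methyltransferase Kmt2a fell by 0.53 (0.022). The complex 2 list averaged 7.56 to 7.74 in the tumours and 6.97 to 7.39 in normal skin. The list of KMT2 complexes and demethylases averaged 7.43 to 7.52 and 7.02 to 7.40. For both the groups did not overlap, while those of the TALE and complex 1 lists did. The part of these genes in the fall of the Hox genes was not tested.

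Genes beside the clusters and noncoding genes within them were also read. Of 13 measured neighbours, 1 was higher and 2 lower, with a median of -0.06. Cbx5, a heterochromatin protein near the Hoxc cluster, was higher by 0.94 (limma adjusted p = 5.6e-04), and Calcoco1 and Smug1, also beside Hoxc, were lower by 0.43 and 0.41 (0.0057 and 0.043). Evx1 and Evx2, homeobox genes at the high-number ends of Hoxa and Hoxd, differed by -0.06 and -0.26 (0.79 and 0.094). Of the 3 measured noncoding genes, 0 passed the limma test (2 lower at an unadjusted p below 0.05). Hottip, Haglr and Hoxd3os1 differed by 0.07, -0.28 and -0.31 (0.71, 0.11 and 0.13). Whether the deposited values separate Hoxd3os1 from Hoxd3 on the opposite strand was not stated.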

How the data were processed

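RNA of 11 snap-frozen mouse tissue pieces was amplified and measured on whole-transcript arrays, per the labels' protocols. The authors deposited log2 values for 241576 probesets; RMA, Partek and build mm9 are named per the submitters' processing notes, with versions and settings not given in the sources used here. Values lay between 0.994 and 15.2, and array medians between 6.22 and 6.27. The number of arrays limits the precision. Coordinates in mm9 were not used.

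Probesets with 1 gene in the array's annotation (212097) were kept, less 590 identical to another of their gene; 4475 with several genes (8 with a Hox symbol) and 25004 with none were left out. Symbols were updated through RefSeq (2742 changed), and a gene's value was the median over its probesets. Differences were tested with limma 3.58.1 in R 4.3.3 (lmFit, eBayes, Benjamini-Hochberg over 20352 genes), with 2 groups for keratoacanthoma and normal skin and 4 groups by genotype for the other two comparisons. Python 3.11.15 was used with matplotlib 3.10.9, numpy 2.4.6 and pandas 2.3.3. The fits were tested on simulated data.

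Members and 15 gene lists were chosen with earlier results of these data known. Values by array were to be given for each Hox gene past the threshold in any comparison and for the 3 with the highest mean (Hoxa4, Hoxc13 and Hoxd9), and of each list up to 4 called genes and up to 2 in the opposite direction. Hoxa10, Hoxb4, Hoxc9 and Hoxd10 by array, the printed promoters, Evx1, Evx2, Ezh2, Krt86, Pdgfra, Twist2, Thy1, Acta2, Rgs5, Notch3 and the noncoding genes were chosen after their values were seen. As alternatives, probesets were averaged, dim probesets or genes (under the 25th percentile) removed, arrays quantile-normalized, centred or weighted, eBayes run with a trend and robustly, the replicate number blocked, other normal skins taken as reference, the hair shaft list added as a covariate and each array left out. Leaving out the 3 arrays high in hair shaft genes was chosen after seeing the data.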

Additional observations from a re-analysis of the deposited data

Results flagged for a closer look

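Of 76 groups of values (38 Hox genes, in keratoacanthoma and in normal skin), 6 held an array whose distance to the nearest other array took up most of the group's range by Dixon's test at 95%, where chance gives about 1 in 20. Hoxc8 stood at 5.28 in keratoacanthoma 4, against 5.82 to 6.02 in the other tumours. Hoxb13 stood at 4.64 in keratoacanthoma 3 (5.37 to 5.53 in the others), Hoxc11 at 4.93 in keratoacanthoma 5 (4.69 to 4.75) and Hoxd12 at 5.42 in keratoacanthoma 1 (4.85 to 4.99). In normal skin both such values were in normal skin 4, for Hoxc9 at 6.64 (4.00 to 4.66 in the others) and Hoxd4 at 7.33 (6.33 to 6.60). Hoxd4 kept its call without normal skin 4.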

How the results depend on the processing

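In 24 alternatives to the comparison of keratoacanthoma with normal skin, the Hox genes called lower numbered 9 to 22 and those called higher 0. Calls over all genes, in either direction, moved too, with 5159 in the fit reported. They were fewest with double transgenic skin alone as reference (3186, with 9 Hox genes). They were most with the mean over probesets (6881, with 20 Hox genes), and without dim probesets they were 5499, with 22 Hox genes. Of the 17 genes, 8 (Hoxa4, Hoxa5, Hoxb2, Hoxb3, Hoxb5, Hoxc6, Hoxc8 and Hoxd8) were called in every alternative that tested them, Hoxb5 not being tested without dim genes. Hoxa6, Hoxb6 and Hoxd4 lost the call only with double transgenic skin alone as reference (adjusted p = 0.19, 0.054 and 0.051). That reference gave 9 calls. Deviations of arrays with the same number in the title correlated at -0.18 to 0.10, which cannot show whether such arrays share an animal. Arrays numbered 3, 4 and 5 differ in genotype between the groups. The replicate block gave 13 calls, without Hoxa7, Hoxb1, Hoxb7, Hoxc5 and Hoxd9 and with Hoxb4. Leaving out 1 array gave 12 to 18 calls. The 3 arrays high in hair shaft genes left out gave 15, of which 13 were among the 17. Without dim probesets 22 were called, among them Hoxa3 (-0.69, adjusted p = 0.023) and Hoxa11 (-0.39, 0.036), whose differences turned since only their brighter probesets remained. Hoxb9 was called with the mean over probesets (-0.35, 0.025). Against double transgenic normal skin, array weights gave 2 calls in place of 10, and leaving out 1 array gave 2 to 12; the cause was not tested. Between double and single transgenic normal skin each alternative run gave 0 Hox calls by limma, with 1 of 38 at an unadjusted p below 0.05 in the fit reported. Dim values limit the genes at high position numbers, 5 of 12 of which stood below the 25th percentile of gene means. They also limit the measured genes at positions 1 to 3 of Hoxa and Hoxd, all of which stood below it.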

Other observations

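Tumours differed among themselves in single Hoxa probesets. For the Hoxa9 probeset with the largest average fall, keratoacanthoma 2 stood at 11.18, above the 9.0 to 10.56 of normal skin, while keratoacanthomas 1 and 4 stood at 4.63 and 4.51. Keratoacanthoma 2 was also the highest tumour for 1 of the 2 Hoxa10 probesets, at 7.30 against 5.73 to 6.29 in normal skin and 4.49 to 5.85 in the other tumours, and for Hoxa7 (6.54) and Hoxa5 (6.32). For Hoxb6 and Hoxb4 the highest tumour was keratoacanthoma 3, at 6.73 and 6.65. The averages over all 38 Hox genes were 5.36 in keratoacanthomas 4 and 5 and 5.54 to 5.55 in the other 3 tumours, against 5.80 to 6.03 in normal skin.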
